A study of Mus musculus with 9 samples.

Results

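Expressed pseudogenes were taken as the rows of the expression table whose symbol ends in -ps with or without a number and whose value reached 1 in at least 3 of the 9 libraries. The values are UQRPKM, which are RPKM, read numbers per gene length and library size, scaled by the upper quartile of the library. Of 44788 rows, 1386 carried a -ps symbol, and 519 of these (37.4%) passed the rule, against 49.7% of all rows. A further 715 were listed at 0 in all 9 libraries and 152 had some value below the rule. The members were therefore chosen by their measured level, and the presence of that level is not a result. The members nearest the limit were Vmn2r-ps95, for which the value that decided the rule, the lowest of its highest 3, was 1.003, Rpl48-ps1 with 1.06 and Dnaja1-ps with 1.15. Just below the limit were Pvrig-ps at 0.980, Fth-ps2 at 0.954 and Vmn1r-ps87 at 0.905.

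The libraries came from J1 cells, a mouse embryonic stem cell (ESC) line grown without feeder cells or serum in the presence of LIF. There were 3 libraries of each of 3 groups. Control was labelled wild type, Foxj3-ES stably expressed Foxj3, and Zbtb18-ES stably expressed Zbtb18, each from a lentiviral vector. None of the groups was treated to differentiate. The labels do not say whether the 3 libraries of a group were separate cultures or whether a line was 1 clone, so a p-value here reflects only library-to-library spread, which may be technical. In bulk RNA, fewer cells of a type and less RNA per cell cannot be told apart.

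A processed pseudogene is a copy of a messenger RNA that was reverse transcribed and inserted elsewhere in the genome, and it has no introns. An unprocessed pseudogene arose by duplication of a gene and can keep its introns. Ribosomal protein genes, which are short and strongly expressed in dividing cells such as ESCs, have left many processed copies in mammalian genomes. A read from such a copy may match its parent gene equally well, so the place given to that read depends on how the counting was done.

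The 6 ESC markers, Pou5f1, Sox2, Nanog, Zfp42, Esrrb and Dppa5a, were above 0 in every library and summed to 27682 to 33264 in Control, 34048 to 38839 in Foxj3-ES, then 39463 to 55976 in Zbtb18-ES. The higher sums came from Pou5f1 and Dppa5a, while Sox2, Nanog and Esrrb were lower in every library of both lines than in any Control library (Nanog 1965 to 2591 in Control, 683 to 1005 in Foxj3-ES, then 1062 to 1345 in Zbtb18-ES). The 5 fibroblast markers summed to 143.6 to 150.5, 134.3 to 216.2 and 54.9 to 81.7 in the same order, with Dcn and Postn at 1.04 or lower and Thy1 contributing most. Foxj3 measured 124, 145 and 115 in Control and 119, 168 and 177 in Foxj3-ES, and the groups overlapped. Zbtb18 measured 46.4, 65.4 and 49.0 in Control and 34.9, 129 and 57.0 in Zbtb18-ES, and these groups overlapped too, so the transgenes were not apparent from these values and the groups are named by their labels. The sum of all values per library ran from 6229490 to 6874840 in Control, from 8086200 to 8416870 in Foxj3-ES, then from 7054410 to 7449340 in Zbtb18-ES. The upper quartile of the values above 0 ran from 159.9 to 181.9 in Control, from 170.8 to 186.6 in Foxj3-ES, then from 157.4 to 169.8 in Zbtb18-ES. The libraries were therefore equal neither in sum nor in this quartile.

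By symbol, 161 members were copies of genes of the large ribosomal subunit (Rpl), 96 of the small subunit (Rps and Rpsa) and 262 of other genes. The parent gene named before -ps was in the table for 427 members, which shared 189 parents, and 92 members had no parent of that name there. In GENCODE M21, 475 members were found, of which 397 were typed processed pseudogene, 15 transcribed processed, 25 unprocessed, 17 transcribed unprocessed and 14 protein coding, with 7 unitary or polymorphic. RefSeq held 41 more and 3 were in neither. In GENCODE, 412 of the 475 had a single exon, and 92 lay inside an intron of a protein-coding gene with no exon over them. Chromosome X held 54 members, the most of any chromosome.

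The mean level over the 9 libraries ranged from 0.403 to 25861 with a median of 64.1, and 106 members averaged at least 1000. A value of 1 or more was found in all 9 libraries for 426 members, in only 3 libraries for 15 and within a single group for 3, which were Pced1c-ps, Snrp1c-ps1 and Hmgb1-ps11. Those 3 passed only through the group in which they were high. The median was 78.0 for Rpl members, 427 for Rps members and 26.1 for the others. The 18 copies of vomeronasal type 2 receptors (Vmn2r), which are genes of pheromone sensing, averaged 11.4 or less.

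All members together made up 7.15% to 7.70% of the summed values in the Control libraries, 9.56% to 10.1% in Foxj3-ES, then 8.15% to 9.28% in Zbtb18-ES. Copies of ribosomal protein genes gave 79.6% to 85.8% of that sum. The 427 members with a parent in the table summed to 0.944 to 0.989 times the sum of their 189 parents in the Control libraries, 1.05 to 1.10 times in Foxj3-ES, then 1.04 to 1.09 times in Zbtb18-ES.

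The 10 highest members were Rpl10a-ps1, Rps16-ps2, Rpl14-ps1, Rps19-ps6, Tpt1-ps3, Rpl19-ps11, Oaz1-ps, Rpl38-ps2, Rpl9-ps6 and Rps25-ps1, with means from 13722 to 25861. Tpt1 encodes the translationally controlled tumor protein and Oaz1 the antizyme that directs ornithine decarboxylase to degradation, and the other 8 parents encode ribosomal proteins. Rpl10a-ps1, on chromosome 1, measured 19001, 21689 and 22088 in Control, 30842, 29648 and 36325 in Foxj3-ES, then 30088, 22468 and 20603 in Zbtb18-ES. Rpl10a itself averaged 2645. Neither comparison with Control reached the threshold for Rpl10a-ps1 (adjusted p = 0.0764 and 0.58). Rpl9-ps6 is typed protein coding by GENCODE. All 10 lay above the mean of the gene they were named after.

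Of the 427 members with a parent in the table, 109 had a higher mean than the parent, 82 of them in every library, and 294 were below the parent in every library. The median log2 ratio of member to parent was -2.875, and in single libraries it lay between -3.15 and -2.75. The parents of Vamp7-ps and C4bp-ps1 were listed at 0, so no ratio was drawn for these. The extremes of the ratio came from the same kind of gene. Rpl26-ps3 averaged 1.26 and Rpl26 averaged 42316, while Rpl31-ps8 averaged 11260 and Rpl31 averaged 501.

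**Figure D1:**
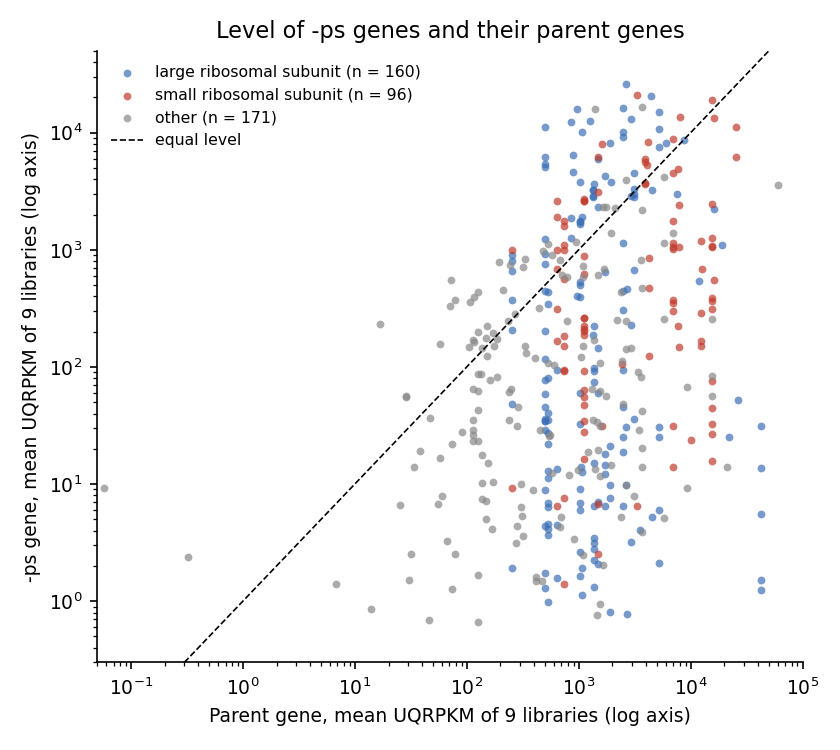
Mean UQRPKM over 9 libraries of each -ps member (vertical, log scale) against that of its parent gene (horizontal, log scale), coloured by family, with the line of equal level. 425 members are drawn, and 109 of the 427 with a parent have the higher mean.

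The ratio to the parent was set beside the sequence that member and parent share. Transcripts from GENCODE M21 were available for 393 of these members and their parents, and the median identity over the aligned part was 96.65%. Members under 90% identity had median ratios of -5.91 and -7.41 on the log2 scale in the classes below and above 85%. The median ratio was -6.37 for the 100 members from 90% to 95%, -3.03 for the 94 from 95% to 98%, and 0.38 for the 122 from 98% to below 100%. All 20 members with 100% identity had a higher mean than the parent, 19 of them in every library, with a median ratio of 2.10. In the other classes, from the lowest identity up, 4 of 24, 1 of 33, 0 of 100, 8 of 94 and 70 of 122 members did so.

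**Figure D2:**
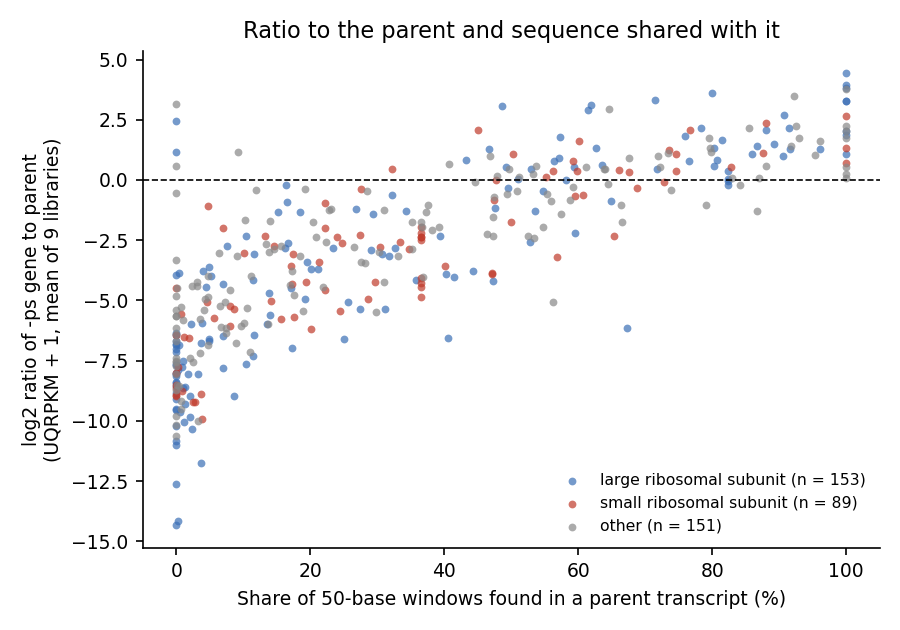
Mean over 9 libraries of the log2 ratio of member to parent, each value + 1 (vertical), against the share of the member's 50-base windows that occur unchanged in a transcript of the parent (horizontal, percent), for 393 members. Members that share few windows lie mostly below 0 and those that share all lie mostly above it.

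The share of 50-base windows of the member found unchanged in the parent gave a rank correlation of 0.836 with the log2 ratio and 0.751 with the member's own level over 393 members. This is a description, since members of one parent share that parent's value and all members share the 9 libraries. Within an identical stretch a read cannot be told apart by sequence. Identity covers the aligned part only, which was under 50% of the member for 12 members. Of the 393, 20 had 100% identity and 18 had all 50-base windows in the parent. Rpl38-ps2 averaged 15902 and Rpl38 961, Rpl36a-ps2 averaged 12308 and Rpl36a 856, and Apoo-ps averaged 232 and Apoo 16.8. Mageb16-ps2, a copy of a gene of the MAGE family, averaged 176 beside 150 for Mageb16. The parents' transcripts are spliced and mostly carry further sequence, and the copies mostly have a single exon, and the part of this in the ratio was not tested. Some members stood away from the pattern. Rpl21-ps15 was 99.4% identical to its parent but averaged 6.39 beside 532, and Rpl18-ps1 lay above its parent although only 24 bases could be aligned.

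The deposited values themselves bear on the counting. From the steps between low values and RefSeq gene lengths, a single read added 1.71 to 2.67 UQRPKM to a 500-base gene, depending on the library. Of 1168 member values estimated at 20 reads or fewer, 35.7% were whole numbers of reads within 0.02. Among 35275 values above 0 of genes that RefSeq types as pseudogenes, 1715 lay within 0.5% of the value of 1 read, 346 of that of one read divided by 2 and 165 of that of one read divided by 10. How reads with several matches were counted is not stated in what was read here, and the part of such reads in these values was not tested. Of 453 members with such an estimate, 77 stayed under 10 reads in every library and 251 reached 100 reads in at least 1 library.

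The comparison of Foxj3-ES with Control set a line made with a lentiviral vector against wild-type cells. In either line, the expressed factor, the vector and the making of the line cannot be told apart. Of the 519 members, 125 rose and 14 fell at an adjusted p under 0.05 (24.1% and 2.70%), where 7.54% of all 22268 genes tested were called higher and 7.01% lower. The 125 include Snrp1c-ps1 and the 14 include Pced1c-ps, whose calls the level rule helped to fix because they passed it only through the group where they were high. The 14 also include Vmn2r-ps112, which reached 1 in the Control libraries and otherwise only in Zbtb18-ES 1. In 138 of the 139 called members the 3 libraries of one group lay apart from the 3 of the other. The calls rest on the same values, so this gives them no further support. The median log2 fold change was 0.43 over the members and -0.03 over all genes. By family, 56 of 161 Rpl members rose and 1 fell, 40 of 96 Rps members rose and 4 fell, and 29 of the 262 others rose and 9 fell, with medians of 0.88, 0.91 and 0.10. Of the 87 genes of the cytosolic ribosome themselves, 45 were called higher and none lower, with a median of 0.80. Predicted genes with Gm symbols, of which many are also copies of other genes, gave 551 higher and 105 lower of 4125.

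**Figure D3:**
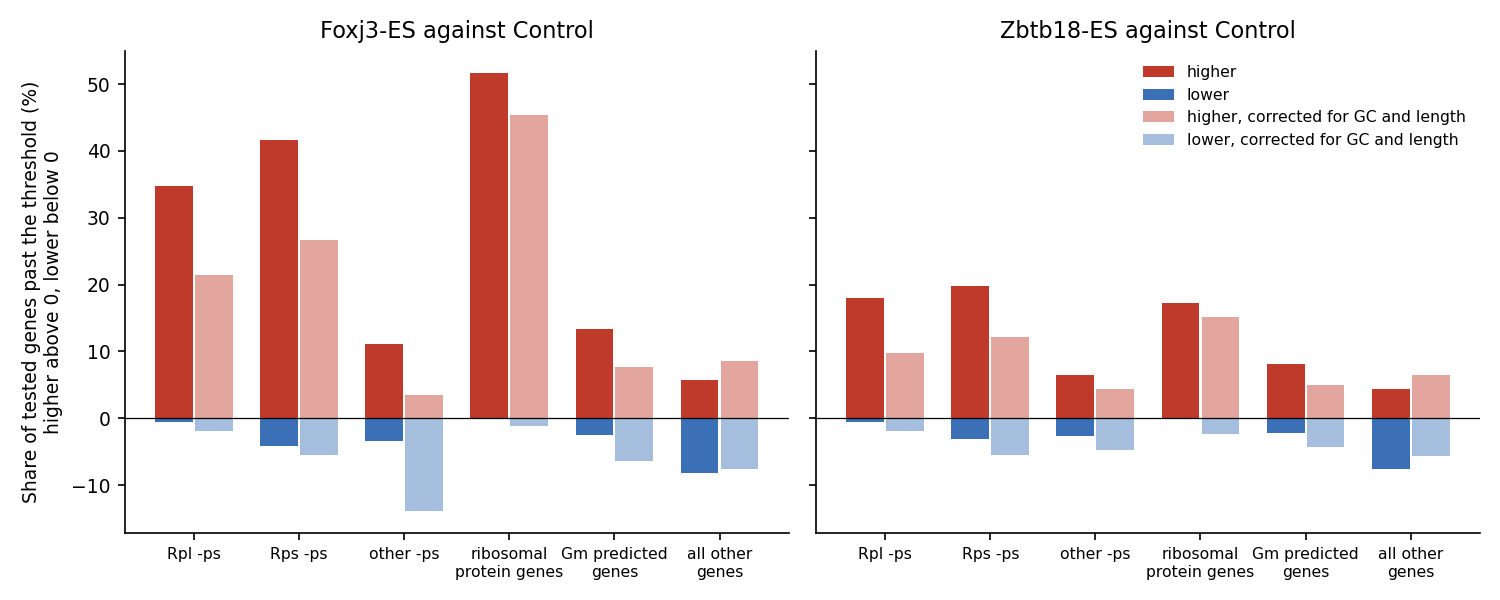
Percent of genes called higher (bars above 0) and lower (bars below 0) at an adjusted p under 0.05 in each line against Control, for the -ps families, cytosolic ribosomal protein genes, Gm genes and all other genes, with paler bars for the fit corrected for GC content and length. In Foxj3-ES against Control, 34.8% of Rpl members and 41.7% of Rps members were called higher, against 7.54% of all genes.

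The counts of all families depended on the scale and the correction, and for the members outside the ribosome the balance of rises and falls turned around. With the sums of the libraries made equal, the median over all genes went from -0.03 to -0.35 in Foxj3-ES, while for Zbtb18-ES it went from -0.02 to -0.16. On that scale 92 members were called higher and 46 lower in Foxj3-ES, where 3.92% of all genes were called higher and 21.1% lower. Rpl members then gave 46 higher and 3 lower and Rps members 29 and 5, and the others 17 higher and 38 lower (14.5%), with a median of -0.20. When GC content and gene length were corrected for, over the 475 members with both, 65 were called higher and 40 lower, with 33 and 3 for Rpl, 24 and 5 for Rps and 8 and 32 for the others. In that fit 8.57% of all genes were called higher and 7.34% lower. The Rpl and Rps medians lay above that of all genes in each of the 3 fits. The median of the other members lay above it as deposited and with equal sums, but below it after the GC and length correction, at -0.20 against -0.01. Without Control 1, 90 members were called in place of 139, and the share of all genes called in that fit is not given here.

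The members were also counted by length. Of 205 members under 500 bases 35.1% rose, of 180 from 500 to 1000 bases 23.9%, of 61 from 1000 to 2000 bases 6.56%, and of 29 longer ones none. Among genes with neither a -ps nor a Gm symbol the same classes gave 3.82%, 18.6%, 10.1% and 3.9%. Ribosomal protein genes are short, so family and length cannot be told apart in this count.

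Rpl19-ps9 is a copy of a large subunit gene on chromosome 6 with 92.8% identity to its parent. It measured 141, 116 and 152 in Control, 698, 871 and 595 in Foxj3-ES, then 488, 537 and 427 in Zbtb18-ES. All libraries of both lines lay above all Control libraries. The log2 fold change was 2.38 ± 0.17 (SE, n = 3 per group, limma adjusted p = 0.00014) in Foxj3-ES and 1.82 in Zbtb18-ES (adjusted p = 0.00068). Rpl19 itself rose by 0.59 in Foxj3-ES (adjusted p = 0.0295, and 0.0536 to 0.104 without 1 of Control 1 or 2 or any Foxj3-ES library), while in Zbtb18-ES it differed by 0.43 (adjusted p = 0.0948). Of the 11 Rpl19 members, 8 rose in Foxj3-ES and 6 in Zbtb18-ES.

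Rpl31, a gene of the large subunit, had 21 expressed copies, more than any other parent. Their means ran from 1.29 to 11260 and 7 were above Rpl31 itself. In Foxj3-ES 14 rose and none fell, and in Zbtb18-ES 8 rose and none fell, beside a change of 1.16 (adjusted p = 0.00746) and 0.72 (adjusted p = 0.0532) in the parent. Bases 33 to 122 of the Rpl31 coding sequence (GENCODE M21, GRCm38, chromosome 1) are shown with the same stretch of Rpl31-ps12 (chromosome 16) and Rpl31-ps13 (chromosome 13), the copies of this family with large rises and many reads, and capitals mark bases that differ from the parent.
Rpl31: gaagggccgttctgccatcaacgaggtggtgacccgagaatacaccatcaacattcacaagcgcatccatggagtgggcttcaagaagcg
Rpl31-ps12: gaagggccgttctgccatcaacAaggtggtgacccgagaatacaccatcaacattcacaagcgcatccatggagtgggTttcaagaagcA
Rpl31-ps13: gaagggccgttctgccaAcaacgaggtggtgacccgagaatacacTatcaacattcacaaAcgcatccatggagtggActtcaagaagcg
Rpl31-ps12 differs at 3 of the 90 bases and Rpl31-ps13 at 4.

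Rpl31-ps13 measured 905, 2528 and 1268 in Control, 8081, 8161 and 12937 in Foxj3-ES, then 4357, 6951 and 3489 in Zbtb18-ES. Its groups did not overlap, and Control 2 was the highest Control library. The log2 fold change was 2.73 ± 0.38 (SE, adjusted p = 0.00228) in Foxj3-ES and 1.73 (adjusted p = 0.0181) in Zbtb18-ES. Rpl31-ps12 measured 980, 3513 and 1524, then 8048, 10602 and 8234, then 3942, 4960 and 4350, and rose by 2.35 (adjusted p = 0.00391) and 1.34 (adjusted p = 0.0433). Rpl31-ps8, identical to the parent over the aligned part, rose by 1.59 and 1.16. The weakly expressed Rpl31-ps21 rose by 2.42 in Foxj3-ES (adjusted p = 0.0207) on fewer than 10 reads in every Control and Foxj3-ES library. The call for Rpl31-ps21 was lost without Control 1 (adjusted p = 0.0627), Control 3 (0.0543), Foxj3-ES 1 (0.0606) or Foxj3-ES 2 (0.0585). Rpl31-ps7 rose by 1.84 in Zbtb18-ES (adjusted p = 0.0439), a call that was lost without any 1 of 8 libraries, with the highest adjusted p of 0.129 without Control 3.

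Rpl21, also of the large subunit, had 15 expressed copies that went both ways. In Foxj3-ES 7 rose and 1 fell, and in Zbtb18-ES 4 rose and 1 fell. Bases 289 to 378 of the Rpl21 coding sequence (GENCODE M21, GRCm38, chromosome 5) are shown with the copies that rose, Rpl21-ps7 (chromosome 17) and Rpl21-ps14 (chromosome 8), and with the one that fell, Rpl21-ps15 (chromosome X), and capitals mark bases that differ from the parent.
Rpl21: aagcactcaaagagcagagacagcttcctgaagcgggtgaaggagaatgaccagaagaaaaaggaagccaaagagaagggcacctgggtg
Rpl21-ps7: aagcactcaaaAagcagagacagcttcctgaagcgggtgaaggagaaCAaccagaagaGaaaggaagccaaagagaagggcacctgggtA
Rpl21-ps14: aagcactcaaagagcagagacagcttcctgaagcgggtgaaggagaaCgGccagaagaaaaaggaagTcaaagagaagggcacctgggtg
Rpl21-ps15: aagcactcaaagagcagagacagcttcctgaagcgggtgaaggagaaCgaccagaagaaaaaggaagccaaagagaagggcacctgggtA
In this stretch Rpl21-ps7 has 5 differences, Rpl21-ps14 has 3 and Rpl21-ps15 has 2.

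Rpl21-ps7 measured 19.1, 5.62 and 17.4 in Control, 231, 131 and 82.6 in Foxj3-ES, then 56.5, 63.4 and 121 in Zbtb18-ES. Every library of both lines was above every Control library, and the changes were 3.34 ± 0.50 (SE, adjusted p = 0.00309) and 2.51 (adjusted p = 0.0132). Rpl21-ps14 rose by 1.85 (adjusted p = 0.0184) and 1.89 (adjusted p = 0.02), with at most 9.6 estimated reads in a Foxj3-ES library. Its call in Zbtb18-ES was lost without Zbtb18-ES 1 (adjusted p = 0.0648) or Zbtb18-ES 3 (0.0669).

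Rpl21-ps15, which lies in an intron of Wnk3 on the opposite strand, was the only member called against its parent in either comparison with Control. It measured 13.1, 9.10 and 12.4 in Control, 3.17, 3.74 and 3.45 in Foxj3-ES, then 4.99, 3.50 and 4.10 in Zbtb18-ES. Both lines were below Control without overlap, by -1.48 ± 0.33 (SE, adjusted p = 0.0164) and -1.26 (adjusted p = 0.0351). Rpl21 measured 188, 290 and 234 in Control, 800, 594 and 940 in Foxj3-ES, then 657, 462 and 627 in Zbtb18-ES, which were rises of 1.71 (adjusted p = 0.0017) and 1.3 (adjusted p = 0.00711). The values of Rpl21-ps15 correspond to 5.17 to 7.95 reads in Control and 1.32 to 2.87 in the lines. Its fall in Foxj3-ES was not called without Control 1 (adjusted p = 0.073) or Control 3 (0.0649), nor in Zbtb18-ES without either of these (0.122 and 0.112) or any 1 Zbtb18-ES library (0.0637 to 0.0955).

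Rps2, a gene of the small subunit, had 11 expressed copies, of which 3 rose and 3 fell in Foxj3-ES and 1 rose and 2 fell in Zbtb18-ES. Rps2 itself measured 631, 962 and 737 in Control, 691, 647 and 724 in Foxj3-ES, then 957, 584 and 665 in Zbtb18-ES, with overlap throughout (adjusted p = 0.658 and 0.824). Bases 320 to 409 of its coding sequence (GENCODE M21, GRCm38, chromosome 17) are shown with Rps2-ps4 (chromosome 11), which rose, and Rps2-ps6 (chromosome 14) and Rps2-ps7 (chromosome 16), which fell, and capitals mark bases that differ from the parent.
Rps2: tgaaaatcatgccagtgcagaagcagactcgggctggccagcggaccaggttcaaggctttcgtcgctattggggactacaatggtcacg
Rps2-ps4: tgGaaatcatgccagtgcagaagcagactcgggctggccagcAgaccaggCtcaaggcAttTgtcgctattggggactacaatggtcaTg
Rps2-ps6: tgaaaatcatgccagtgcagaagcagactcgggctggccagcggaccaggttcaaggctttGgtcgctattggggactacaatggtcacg
Rps2-ps7: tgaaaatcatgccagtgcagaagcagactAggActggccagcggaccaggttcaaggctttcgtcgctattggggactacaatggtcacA
The differences number 6, 1 and 3 in that order.

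Rps2-ps4 measured 58.1, 58.2 and 48.0 in Control, 439, 306 and 199 in Foxj3-ES, then 207, 122 and 203 in Zbtb18-ES, rising by 2.43 ± 0.29 (SE, adjusted p = 0.00131) and 1.64 (adjusted p = 0.00857). Rps2-ps6 measured 2376, 6557 and 2218 in Control, 506, 433 and 564 in Foxj3-ES, then 573, 392 and 605 in Zbtb18-ES. It stood above Rps2 in the Control libraries and below it in the libraries of both lines, with changes of -2.71 ± 0.36 (SE, adjusted p = 0.00203) and -2.66 (adjusted p = 0.00307). Rps2-ps7 measured 1740, 5266 and 1514 in Control, 71.2, 68.8 and 802 in Foxj3-ES, then 133, 82.1 and 248 in Zbtb18-ES, with Foxj3-ES 3 apart from the other Foxj3-ES libraries. It fell by 3.92 (adjusted p = 0.0159) and by 4.10 (adjusted p = 0.0166) on the log2 scale. The call for Rps2-ps7 in Foxj3-ES was lost without Foxj3-ES 1 (adjusted p = 0.0616) or Foxj3-ES 2 (0.0552), and in Zbtb18-ES without Control 2 (0.0537) or Zbtb18-ES 2 (0.0515). Rps2-ps5 fell in Foxj3-ES by 0.98 (adjusted p = 0.0463).

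The log2 ratio to the parent within each library was computed for Rpl21-ps15, Rps2-ps6, Rps2-ps7 and Rpl38-ps2. These were picked with the same contrasts in view, so their differences from Control are a description with no test. The differences in Foxj3-ES were -3.18, -2.55, -3.76 and 1.27 in that order, and in Zbtb18-ES -2.56, -2.57, -4.01 and 1.34. For the identical copy Rpl38-ps2 the values were 6702, 8048 and 9111 in Control, 22111, 18697 and 22779 in Foxj3-ES, then 19648, 16170 and 19856 in Zbtb18-ES. The groups of Rpl38-ps2 did not overlap, and it rose by 1.42 (adjusted p = 0.002) and 1.23 (adjusted p = 0.00494). Rpl38 measured 1095, 646 and 1135, then 1118, 888 and 1098, then 1229, 792 and 650, with overlap throughout (adjusted p = 0.763 and 0.828).

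**Figure D4:**
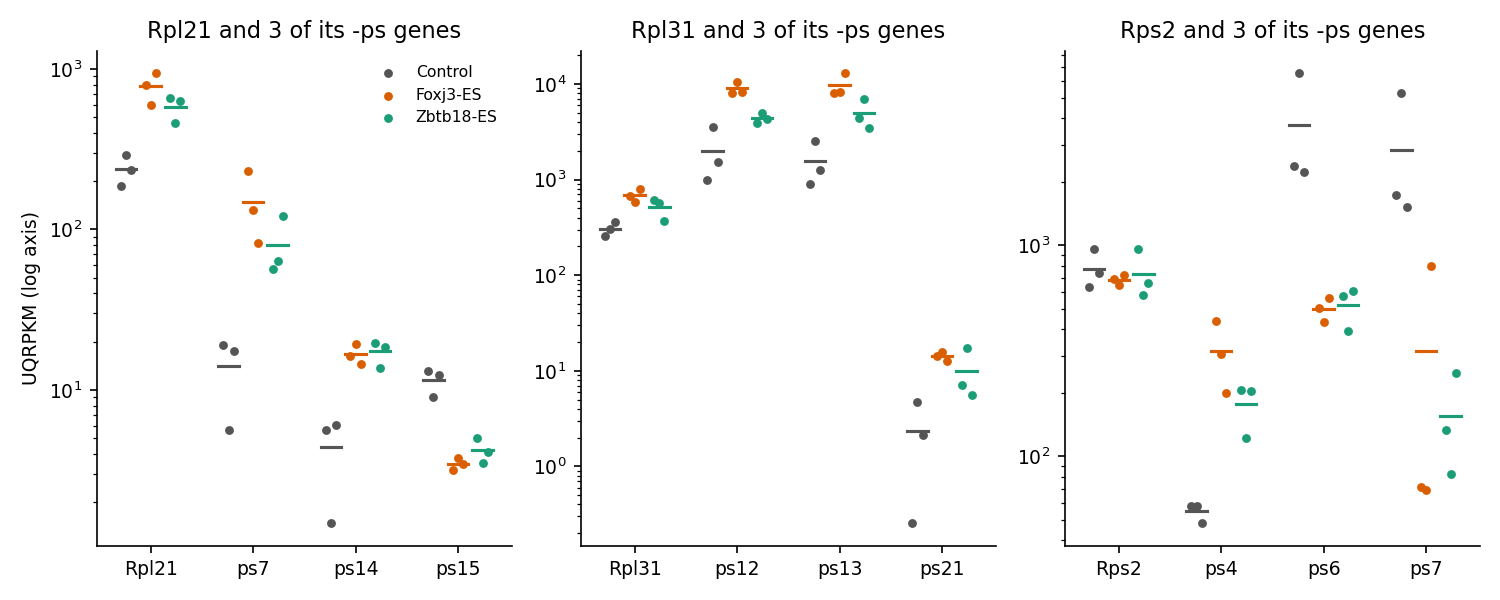
UQRPKM (log scale) for Rpl21, Rpl31 and Rps2 and 3 members of each, with a point for each library, coloured by group, and a bar at the group mean. Rps2-ps6 and Rps2-ps7 were high in the 3 Control libraries, and Rpl21-ps15 fell where Rpl21 rose.

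Other ribosomal families were counted in the same way. Of 18 copies of Rps12, 10 rose in Foxj3-ES and none fell, and all 18 had a fold change above 0. All 6 copies of Rpl35a, all 4 of Rps13 and all 3 of Rps6 rose in Foxj3-ES, and 4, 1 and 3 of them rose in Zbtb18-ES. Rpl35a-ps7 measured 8.07, 13.9 and 15.6 in Control, 40.1, 52.2 and 57.0 in Foxj3-ES, then 34.5, 70.3 and 31.3 in Zbtb18-ES, without overlap (changes 1.94 and 1.73). None of the 10 copies of Rpl30 was called in Foxj3-ES or in Zbtb18-ES, although Rpl30 rose by 1.53 (adjusted p = 0.00547) and 1.21 (adjusted p = 0.017). The 12 copies of Rpl7a, whose parent did not reach the threshold (adjusted p = 0.912 and 0.1), gave 2 rises in Foxj3-ES.

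Among single ribosomal members, Rpl17-ps7 measured 16.2, 103 and 37.7 in Control, 364, 649 and 318 in Foxj3-ES, then 95, 212 and 59.3 in Zbtb18-ES. It rose in Foxj3-ES by 3.37 ± 0.62 (SE, adjusted p = 0.00761), and its Zbtb18-ES libraries overlapped Control (adjusted p = 0.178). Rps19-ps11, a small subunit copy that shares no 50-base window with its parent, measured 9.33, 21.2 and 18.4 in Control and 84.1, 80.3 and 76.4 in Foxj3-ES, a rise of 2.30 (adjusted p = 0.00257). Its parent Rps19 was not called (adjusted p = 0.0681). Rps25-ps1 and Rpl14-ps1, both among the 10 highest members, rose in Foxj3-ES by 1.51 and 1.38 (adjusted p = 0.00168 and 0.00273), beside 1.43 in Rps25 (adjusted p = 0.00602) and 0.42 in Rpl14 (adjusted p = 0.295). Rps19-ps9 and Rps15a-ps4 rose in Zbtb18-ES by 1.79 and 1.73 (adjusted p = 0.00891 and 0.021). The latter call was lost without Control 2 (adjusted p = 0.0507), Zbtb18-ES 1 (0.0716) or Zbtb18-ES 3 (0.0753).

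Among members outside the ribosome, Atp5l-ps1, a copy of the gene for subunit g of mitochondrial ATP synthase, measured 206, 199 and 236 in Control, 1046, 772 and 947 in Foxj3-ES, then 811, 884 and 2330 in Zbtb18-ES. Its groups lay apart, with rises of 2.10 (adjusted p = 0.00425) and 2.47 (adjusted p = 0.00307), and Atp5l rose by 1.96 and 2.15. Txn-ps1, named after thioredoxin, measured 254, 232 and 283 in Control, 934, 1044 and 772 in Foxj3-ES, then 699, 570 and 520 in Zbtb18-ES, and rose by 1.83 (adjusted p = 0.00037) and 1.21 (adjusted p = 0.00289). Smt3h2-ps, Smt3h2-ps3 and Smt3h2-ps4, named after a small ubiquitin-like modifier, rose in Foxj3-ES by 1.11, 0.97 and 1.10. Smt3h2-ps3 rose in Zbtb18-ES by 0.59 (adjusted p = 0.0408), a call lost without any 1 Control or Zbtb18-ES library or Foxj3-ES 1 (0.0502 to 0.12). The rises of Smt3h2-ps and Smt3h2-ps4 were not called without Foxj3-ES 1 (adjusted p = 0.0507) and without Control 1 or 3 (0.053 and 0.0532). Hnrnpa1l2-ps rose by 1.09 and Atp5l2-ps by 0.77 in Foxj3-ES.

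Falls outside the ribosome included Actg-ps1, named after a gamma actin. It measured 347, 320 and 422 in Control, 170, 154 and 160 in Foxj3-ES, then 109, 195 and 86.4 in Zbtb18-ES, and changed by -1.16 (adjusted p = 0.016, and 0.0619 without Control 3) and -1.55 (adjusted p = 0.00651). Tmem181b-ps measured 46.1, 32.5 and 35.9, then 12.4, 16.0 and 11.6, then 9.54, 18.5 and 13.1, with changes of -1.45 (adjusted p = 0.013, and 0.0612 without Control 1) and -1.44 (adjusted p = 0.0165, and 0.051 to 0.0665 without 1 of Control 1 or 3 or Zbtb18-ES 1 or 3). In both genes the lines lay below Control without overlap. Hsp25-ps1, named after a small heat shock protein, fell by 0.69 in Foxj3-ES (adjusted p = 0.0105). Ppp1r2-ps3, a copy of the gene for an inhibitor of protein phosphatase 1, fell by 1.22 in Foxj3-ES (adjusted p = 0.0294), and Slc22a13b-ps fell by 2.12 there (adjusted p = 0.0207). Tcp1-ps1, a copy of a chaperonin subunit gene, fell by 1.33 in Zbtb18-ES (adjusted p = 0.0302), Tmem181c-ps by 1.39 (adjusted p = 0.0262) and Ak3l2-ps by 0.65 (adjusted p = 0.0305). Each of these last 5 calls was lost when any 1 of several libraries was left out. The adjusted p was 0.0655 to 0.0852 for Ppp1r2-ps3 without 1 of Control 1 or 2 or Foxj3-ES 1 or 2, and 0.0545 to 0.0776 for Slc22a13b-ps without 1 of Control 3 or Foxj3-ES 1 or 2. It was 0.052 to 0.112 for Tcp1-ps1 without any 1 Control or Zbtb18-ES library, 0.0577 to 0.0807 for Tmem181c-ps without any 1 of these but Zbtb18-ES 3, and 0.0507 to 0.104 for Ak3l2-ps without any 1 of these but Zbtb18-ES 2.

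A few calls rested on very few reads. Vmn2r-ps112 measured 11.6, 12.2 and 5.37 in Control, was listed at 0 in all Foxj3-ES libraries and measured 3.01, 0 and 0 in Zbtb18-ES. These values correspond to 4, 4 and 2 reads in Control and 1 read in Zbtb18-ES 1. It was called lower in both comparisons (adjusted p = 0.00612 and 0.0183), in Zbtb18-ES not without 1 of Control 1 or 2 or Zbtb18-ES 2 or 3 (0.0544 to 0.0658). Without its Control values Vmn2r-ps112 would not have passed the level rule, so its values are a description and its calls are no result. Pced1c-ps measured 3.81, 1.59 and 3.51 in Control, that is 5, 2 and 5 reads, and 0, 0 and 0.886 in Foxj3-ES. It passed the level rule only through Control, so its values are a description. In all, 8 of the 133 members called in Foxj3-ES with an estimate stayed under 10 reads in every Control and Foxj3-ES library. In Zbtb18-ES, 2 of 70 stayed under 10 reads in every Control and Zbtb18-ES library.

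The comparison of Zbtb18-ES with Control, which used the same Control libraries, gave 65 members higher and 11 lower, where 5.31% of all genes were called higher and 6.5% lower. In all 76 called members the groups lay apart, which again gives the calls no further support. The 11 include Vmn2r-ps112, which passed the level rule through its Control values. Rpl members gave 29 higher and 1 lower, Rps members 19 and 3, and the others 17 and 7, with medians of 0.56, 0.40 and 0.13 beside -0.02 over all genes. Of the 87 ribosomal protein genes 15 were called higher and none lower, with a median of 0.43. With equal library sums, 55 members were called higher and 22 lower, where 4.03% of all genes were called higher and 12.3% lower. The members outside the ribosome then gave 14 and 14 (5.34% each) with a median of -0.01. With GC content and gene length corrected for, 36 of 475 were called higher and 19 lower (7.58% and 4%), close to the 6.19% and 5.37% of all genes. The count of 76 fell to 40 without Control 1, 47 without Control 3, 41 without Zbtb18-ES 1 and 50 without Zbtb18-ES 2. The shares of all genes called in those fits are not given here.

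Of the 49 members typed unprocessed, unitary or polymorphic, 2 rose and 2 fell in Zbtb18-ES, and the 2 that rose were H2-M6-ps and Btnl7-ps. H2-M6-ps, named after a class I histocompatibility gene, measured 84.9, 145 and 104 in Control, 155, 157 and 161 in Foxj3-ES, then 237, 285 and 330 in Zbtb18-ES. The Zbtb18-ES libraries were the highest 3, and the rise was 1.36 (adjusted p = 0.00438). Btnl7-ps, a butyrophilin-like copy, rose by 1.08 (adjusted p = 0.0318, and up to 0.117 without 1 of Control 1, 2 or 3 or Zbtb18-ES 1 or 3). Glud-ps, named after glutamate dehydrogenase, rose by 0.57 (adjusted p = 0.0318, and up to 0.109 without 1 of Control 1 or 3 or Zbtb18-ES 2 or 3).

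Member and parent calls were set side by side for the 423 members whose parent was tested. In Foxj3-ES 81 members rose with their parent, 37 rose while the parent was not called, 104 were not called while the parent rose, and none rose while the parent fell. In Zbtb18-ES these counts were 21, 39, 43 and none. The log2 fold changes of member and parent gave a rank correlation of 0.545 over 423 members in Foxj3-ES, 0.676 over 236 members with at least 95% identity and 0.281 over 154 members below it. These are descriptions, since members and parents share libraries and may share reads. When a parent and all its -ps rows were summed to 1 value before the fit, 45 of 189 families rose and 7 fell in Foxj3-ES, beside 51 and 7 of the 185 parents tested alone, and 39 were higher both ways. With rows kept apart, 7.54% of all genes were called higher and 7.01% lower. The share over the 21845 rows of the summed fit is not given here for any comparison. The summed Rps2 family was called lower in Zbtb18-ES (log2 fold change -1.105, adjusted p = 0.045), although Rps2 alone was not.

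**Figure D5:**
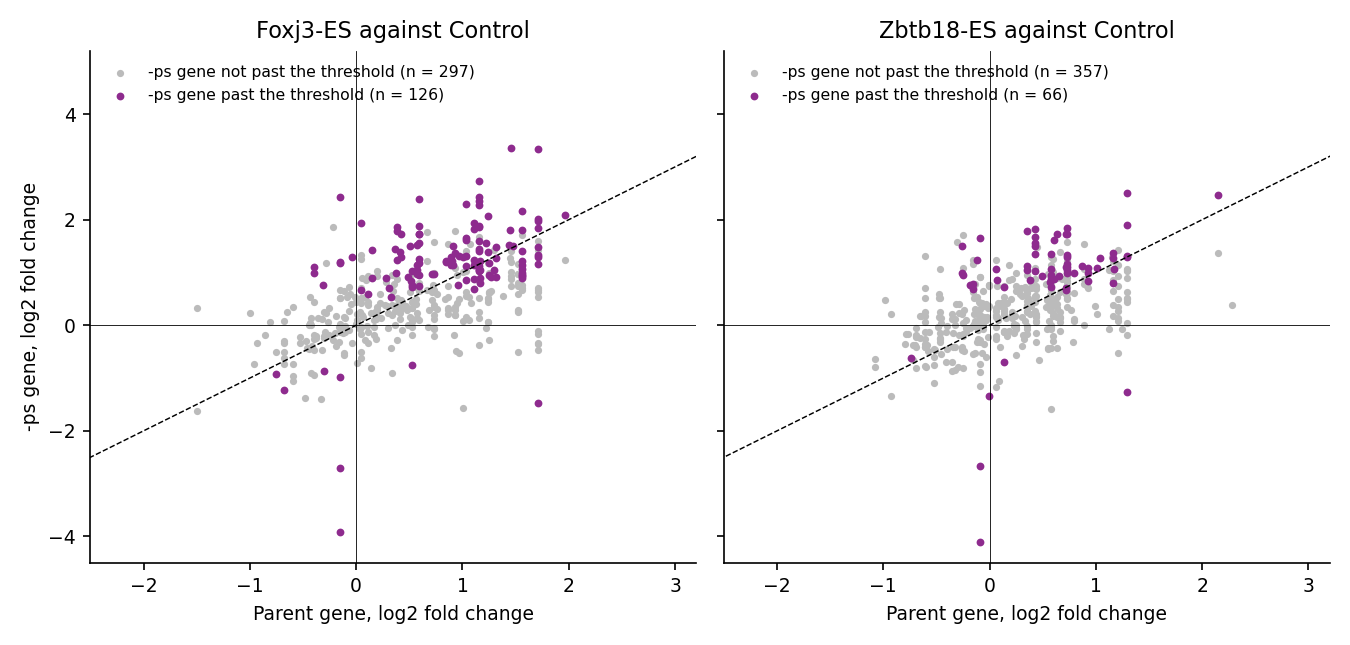
Log2 fold change of each -ps member (vertical) against that of its parent (horizontal) in Foxj3-ES and Zbtb18-ES against Control, for 423 members. Rpl21-ps15 is the one member called lower with a parent called higher, in both panels.

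Between Zbtb18-ES and Foxj3-ES no member was called higher and 2 were called lower, where 0.328% and 0.359% of all genes were called. The median of the members was -0.17. Rps2-ps9, a small subunit copy, measured 153, 151 and 141 in Foxj3-ES, then 93.3, 64.5 and 53.6 in Zbtb18-ES, beside 71.8, 61.9 and 58.5 in Control. The groups lay apart, and the change was -1.10 ± 0.21 (SE, adjusted p = 0.0496). The call for Rps2-ps9 was lost in all but 2 of the 9 fits that left out 1 library (adjusted p up to 0.18, without Zbtb18-ES 3). Snrp1c-ps1 measured 3.59, 3.21 and 2.93 in Foxj3-ES, each the value of 1 read, and was listed at 0 in the other 6 libraries. It is a member only because all 3 Foxj3-ES libraries reached 1, so these values are a description and its call is no result.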

How the data were processed

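RNA-seq was analysed in 9 libraries (Control, Foxj3-ES and Zbtb18-ES, 3 each), which the authors made from total RNA and sequenced with the Ion Proton. The deposited unit is UQRPKM, that is RPKM after upper-quartile scaling. The submitters' processing notes name mm10 and DESeq without versions, and for the aligner, the counting step and reads with several matches, the method is not stated in what was read here. Depth is not stated, and reads were only estimated from the steps between low values, so no count test was used.

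log2(UQRPKM + 1) was computed from the deposited values and fitted with limma 3.58.1 (R 4.3.3), with a trend, over 22268 genes that reached 1 in 3 or more of 9 libraries, as 3 group means without a replicate block. Benjamini-Hochberg adjustment covered all these genes, every adjusted p in the text comes from limma, and rose, fell and called mean an adjusted p under 0.05. A fold change on the log2(UQRPKM + 1) scale understates the change of low genes. Symbols were matched to GENCODE M21 (GRCm38), then RefSeq, and member transcripts were aligned to those of the parent with Biopython 1.88.

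Named members were the 10 with the highest mean, the 8 largest rises and falls per comparison among called members whose groups did not overlap, members called against their parent, families of 3 or more copies, called members without a parent in the table, and those nearest the limit. Rps2-ps5, Rpl31-ps8, Rps25 and Rpl14 comparisons, the identical copies and members away from the pattern were added after their values were seen. The members, lists and rules were chosen with earlier results of these data known. The fit was run on simulated data with independent noise and with changes set only in genes above a low mean level. Changes in members with few reads and scale differences between libraries were not simulated. Alternatives covered pseudocount, filter, scaling, trend, groups in the fit, replicate block, GC content and length, threshold and left-out libraries.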

Additional observations from a re-analysis of the deposited data

Results flagged for a closer look

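The comparison between the lines is also the difference of their changes from Control, and 2 members were called in it. Rps2-ps9 differed by -1.10 on the log2 scale (limma adjusted p = 0.0496): it rose by 1.20 in Foxj3-ES (adjusted p = 0.00601) and had a change of 0.10 in Zbtb18-ES (adjusted p = 0.802). Snrp1c-ps1 had an adjusted p of 0.0372, which is no evidence of a difference, because the gene passed the level rule only through Foxj3-ES, with 1 read in each of its libraries and none elsewhere.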

How the results depend on the processing

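The count of members called was 139 in Foxj3-ES, 76 in Zbtb18-ES and 2 between the lines. Leaving out 1 library gave 90 to 146, 40 to 73 and 0 to 7. With the replicate block the counts were 139, 77 and 0, and the replicate numbers did not pair the libraries (correlations of same-numbered libraries from -0.05 to 0.08). The replicate block with the GC and length correction gave 90, 49 and 1. In Zbtb18-ES the count was 49 without a trend and 49 with a fold change of at least 2. Between the lines it was 0 with a pseudocount of 0.25, 1 with a pseudocount of 4, 1 with a filter on the mean, 1 with no filter, 1 with quantile normalization, 0 with only 2 groups in the fit and 4 with the GC and length correction. The cause of these shifts was not tested, and the fits with the GC and length correction cover fewer genes. Where the share of all genes called in a fit is not given here, a shift in the members cannot be told from one over all genes. The median log2 ratio to the parent was -2.875, and -2.78 with a pseudocount of 4. Summing parents with their copies, an alternative chosen after seeing the data, gave 52 called families in place of 58 called parents in Foxj3-ES, 38 in place of 35 in Zbtb18-ES and 1 in place of 2 between the lines. Of 69 called fold changes of named genes, 32 stayed past the threshold in every alternative run and none reversed. Of the 453 members with a read estimate, 77 stayed under 10 reads in every library.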

Other observations

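Copies of pluripotency and growth genes, chosen after their values were seen, gave values that did not reach the threshold. Nanog-ps1, named after the pluripotency factor Nanog, measured 62.8, 45.9 and 64.3 in Control, 25.6, 30.5 and 6.95 in Foxj3-ES, then 27.8, 29.2 and 13.0 in Zbtb18-ES. All libraries of both lines were below Control, with log2 fold changes of -1.63 (limma adjusted p = 0.0556) and -1.33 (adjusted p = 0.115), while Nanog fell by 1.5 (adjusted p = 0.00117) and by 0.93 (adjusted p = 0.011). Trp53-ps, a copy of the gene for the tumor suppressor p53, had changes of -0.73 (adjusted p = 0.07) and -0.79 (adjusted p = 0.0583), beside falls of 0.96 and 1.08 in Trp53 (adjusted p = 0.0127 and 0.0108). Zfp42-ps1 had changes of -0.14 and 0.32 (adjusted p = 0.654 and 0.274).

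Of 49 members typed unprocessed, unitary or polymorphic, 1 rose and 2 fell in Foxj3-ES, beside 111 and 11 of the 397 processed ones, where 7.54% of all genes were called higher and 7.01% lower. In Zbtb18-ES 2 of the 49 rose and 2 fell, beside 56 and 8 of the 397, where 5.31% and 6.5% of all genes were called.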
